A study of Homo sapiens with 4 samples.

Results

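The genes described here are those of the heterogeneous nuclear ribonucleoproteins (HNRNP), the serine and arginine rich splicing factors (SRSF), the SRRM proteins and the TRA2 proteins. They were taken by symbol from the deposited gene list, which left 44 of 36601 genes once an hnRNP pseudogene and an antisense gene of SRRM2 were set aside. The 44 genes are 25 HNRNP, 12 SRSF, 5 SRRM and 2 TRA2 genes. The study irradiated BEAS-2B, an immortalised line of human bronchial epithelial cells, with gamma rays of Cs-137 at 10 mGy, 100 mGy or 1 Gy, and left a control without irradiation. Cells were taken for droplet single-cell sequencing 30 min later, with 1 library for each dose. No library has a replicate, so dose cannot be told apart from library and no p-value is given. Every interval is an exact 95% interval for counting error alone.

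Introns are removed from a transcript by the spliceosome, and these proteins help to decide which exons it keeps. SR proteins carry an RNA-binding part and a tail rich in arginine and serine, and on exons they mostly promote inclusion. The hnRNP proteins coat new transcripts and often act against inclusion, so the balance between both families sets many splicing choices. SRRM1 and SRRM2 are large serine and arginine rich proteins of nuclear speckles, where splicing factors are stored, and TRA2A and TRA2B bind purine-rich exonic enhancers. SR proteins are phosphorylated by CLK and SRPK kinases. Many SR and hnRNP genes limit their own level through exons that expose the transcript to decay. UMIs per gene, the molecules counted, give the amount of transcript and do not show which exons it holds.

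The 4 libraries held 11111 to 21514 barcodes and 211752280 to 285806026 UMIs. Pairs of libraries shared 76 to 134 barcodes. Median UMIs of a barcode lay between 12417 (100 mGy) and 19771 (control), with 13757 at 10 mGy and 14277 at 1 Gy. Barcodes with less than 1/3 of their library's median UMI count, called low-UMI here, made up 19.6%, 41.4%, 27.4% and 25.4% of the barcodes of the control, 10 mGy, 100 mGy and 1 Gy libraries. Ribosomal protein genes took 13.9% of the UMIs in the control and 14% at 1 Gy, but 20% at 10 mGy and 21.8% at 100 mGy. Keratins KRT8, KRT18 and KRT7 stood at 219 to 645 CPM, which are the UMIs of a gene summed over all barcodes per 1000000 UMIs of the library. The epithelial markers EPCAM and CDH1 were at or below 1.17 CPM, KRT19 was at or below 2.41 CPM, and the defining immune and endothelial markers PTPRC and PECAM1 were at or below 0.0567 CPM. The fibroblast markers summed to 27.8 to 34.7 CPM, most of it from COL1A1, the immune markers to 7.06 to 10.8 CPM, nearly all of it from CD68, and the endothelial markers to 0.295 to 0.504 CPM.

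Of the 44 genes, 34 reached a mean of 10 CPM over the libraries, as did 8507 genes in all, and these are the genes compared. They were 20 HNRNP, 10 SRSF, 2 SRRM and 2 TRA2 genes. With the other 10 counted in, they made up 1.33% of the UMIs of the control library, and 1.03%, 1.04% and 1.3% of those at 10 mGy, 100 mGy and 1 Gy. HNRNP genes alone took 0.95%, 0.691%, 0.693% and 0.923%, and SRSF genes 0.265%, 0.244%, 0.248% and 0.257%. Of the 10 genes below the minimum, SRSF8 came nearest with 9.88, 8.86, 7.87 and 10.1 CPM in the order control, 10 mGy, 100 mGy and 1 Gy, which is the order of all such sets of values. HNRNPA1L2 had 0.912 to 1.73 CPM, SRSF12 0.765 to 0.978, SRRM3 0.479 to 0.7 and SRRM5 0.164 to 0.623. SRRM4, which directs neuronal microexons, had 1 UMI in the control and 1 at 100 mGy. HNRNPCL1 and HNRNPCL2 had no more than 0.0142 CPM. No UMI of HNRNPCL3 or HNRNPCL4 was counted, for which the limit, taken as 3 UMIs and so one-sided, was 0.0105 to 0.0142 CPM by library.

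At both low doses most of the 34 genes were lower than in the control, by a median near that of the 8507 genes compared, and at 1 Gy all 34 were within 1.2-fold of it. The study selected genes by a threshold of 1.2-fold together with a p-value cutoff. Only the fold is used here, and a gene past 1.2-fold is called lower or higher. The counts are thus not the study's own calls. At 10 mGy 20 of the 34 were lower and 0 higher, where 53.0% of all genes compared were lower and 15.4% higher. At 100 mGy 23 were lower and 0 higher, where the background was 58.9% lower and 14.0% higher. By 1.5-fold, 6 were lower at 10 mGy and 8 at 100 mGy, with a background of 25.8% and 33.9%. At 1 Gy 0 were lower and 0 higher, with a background of 0.846% and 1.28%. Among the 8507 genes the members' share of lower genes was thus near the background, but it was above that of genes of high level. Of the 31 members of at least 100 CPM, 19 were lower at 10 mGy and 21 at 100 mGy, where 37.1% and 39.0% of all 1779 such genes were. The median log2 ratio to the control was -0.36, -0.39 and -0.04 at 10 mGy, 100 mGy and 1 Gy, and that of all genes -0.30, -0.38 and 0.02. The larger UMI share of ribosomal protein genes moved with the low doses. With these and the mitochondrially encoded genes left out of the totals, the medians of the members were -0.27 at both low doses. Those of all genes were then -0.22 and -0.27, since a change of the totals shifts all genes alike. What part the ribosomal protein share has in the ratios was not tested. The 31 members of at least 100 CPM had medians of -0.40 and -0.44 at 10 and 100 mGy against -0.06 and -0.07 for the 1779 genes, so the background depends on the level of the genes it holds. In UMIs per barcode without scaling, all 34 were lower at each of the 3 doses, where 84.6%, 90.1% and 97.2% of all genes were.

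Relative to the median of all genes the group lay near the centre. On that scale 6 of the 34 were lower and 5 higher by 1.2-fold at 10 mGy, where 27.0% and 30.7% of all genes were, and 7 were lower and 7 higher at 100 mGy, where 29.0% and 31.8% were. The members also differed less among themselves than genes in general, with a standard deviation of the log2 ratio of 0.29 at 10 mGy and 0.29 at 100 mGy, against 0.47 and 0.52 over all genes. At 1 Gy the values were 0.10 and 0.11. A spread below that of all genes was not particular to the group. At the low doses it was 0.28 and 0.31 for other RNA-binding regulators, a list described below. It was 0.34 and 0.36 for other RS-domain and speckle genes, and 0.39 and 0.44 for SR protein kinases and phosphatase. The spread over all genes also holds the trend with exonic length given below. The plot of log2 ratios by gene shows the position of each member.

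**Figure D1:**
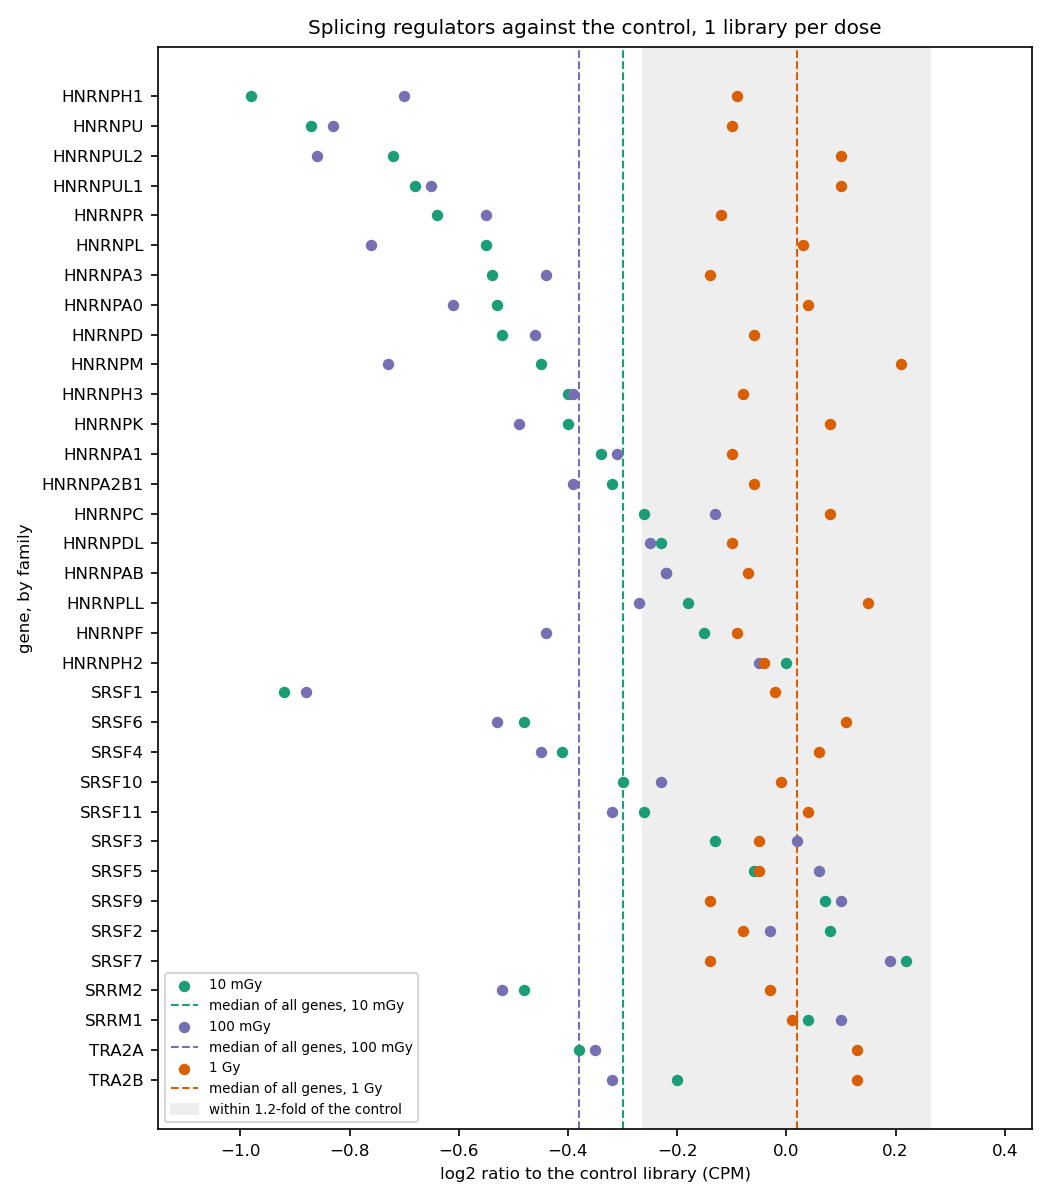
Log2 ratio of CPM to the control library (horizontal axis) for the 34 genes compared (vertical axis, by family), with 1 point for each dose, 1 library per dose. Dashed lines mark the median of all genes at each dose and the grey band a ratio within 1.2-fold, and at 1 Gy all 34 points lie in the band.

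A larger share of the hnRNP than of the SR genes was lower at the low doses, a difference that was not tested with 1 library per dose. Of 20 HNRNP genes, 14 were lower at 10 mGy and 16 at 100 mGy, with median log2 ratios of -0.42 and -0.45, where 53.0% and 58.9% of all genes were lower. Of 10 SRSF genes, 4 were lower at each of these doses, with medians of -0.19 and -0.13, and these were SRSF1, SRSF4 and SRSF6 at both doses, with SRSF10 at 10 mGy and SRSF11 at 100 mGy. SRRM2 was lower at both doses and SRRM1 at neither, and TRA2A was lower at both and TRA2B at 100 mGy. In all, 19 of the 34 genes were lower at both low doses, 14 of them HNRNP genes, where 50.7% of all genes were, and both comparisons share the control library. Relative to the median of all genes, 5 and 6 HNRNP genes were lower and 1 higher at each dose, and 1 SRSF gene was lower at each and 3 and 5 were higher, where 27.0% and 29.0% of all genes were lower and 30.7% and 31.8% higher. Set against genes of like exonic length, 3 and 4 of the 20 HNRNP genes and 1 and 1 of the 10 SRSF genes were lower, where 22.0% and 24.3% of all genes were, and 0 and 2 HNRNP genes and 3 and 5 SRSF genes were higher, where 24.6% and 25.4% were. The median log2 ratio on that scale was -0.09 and -0.01 for the HNRNP genes and 0.20 and 0.26 for the SRSF genes.

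Among the hnRNP genes, HNRNPH1 had the lowest ratio at 10 mGy. It encodes a protein that binds runs of G and steers exon choice. HNRNPH1 had 428, 217, 264 and 403 CPM. The ratio to the control was 0.508 (interval 0.503 to 0.513) at 10 mGy, 0.616 (0.609 to 0.622) at 100 mGy and 0.942 (0.933 to 0.951) at 1 Gy. Of all genes compared, 4.74% had a lower ratio at 10 mGy and 25.2% at 100 mGy. The 10 mGy library was the lowest of the 4, and HNRNPH1 was also the gene of the group with the highest ratio of 100 mGy to 10 mGy, at 1.21. The related HNRNPH3 had 283, 215, 216 and 269 CPM, HNRNPF had 176, 159, 130.4 and 166 CPM, and HNRNPH2 had 39.4, 39.5, 38.2 and 38.2 CPM. HNRNPH2 was thus near its control level in every library, while HNRNPF was lower at 100 mGy only. These genes differ in exonic length. From the median log2 ratio of genes of like length, HNRNPH2 was at -0.04 at 10 mGy and -0.06 at 100 mGy. HNRNPH1 was at -0.44 and -0.04, HNRNPH3 at -0.04 and 0.05, and HNRNPF at -0.05 and -0.28.

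HNRNPU, a chromatin-bound protein also known as scaffold attachment factor A, was the other hnRNP gene among the lowest at 10 mGy. It had 979, 536, 552 and 911 CPM, with ratios of 0.547, 0.564 and 0.93. HNRNPUL2, a relative of HNRNPU, had 149, 90.6, 82.3 and 160.2 CPM, and at 100 mGy its ratio of 0.551 (0.542 to 0.561) was the lowest of the HNRNP genes. HNRNPUL1 followed with 268, 167, 171 and 287 CPM. All 3 genes of this branch were lower by over 1.2-fold in both low-dose libraries, where 50.7% of all genes were. HNRNPU, HNRNPUL2 and HNRNPUL1 were at -0.19, -0.36 and -0.25 from the median log2 ratio of genes of like exonic length at 10 mGy. At 100 mGy they were at -0.02, -0.41 and -0.12. In the 1 Gy library HNRNPU was below the control and the other 2 above it.

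At the low doses the 3 hnRNP genes of highest mean CPM differed less from the control than HNRNPU. HNRNPA2B1, a relative of HNRNPA1 with a part in splicing and RNA transport, had 1036, 828, 788 and 993 CPM. HNRNPAB had 991, 849, 849 and 943 CPM, and stayed within 1.2-fold of the control in every library. HNRNPA3 had 959.8, 660.1, 706 and 870.3 CPM, and with a ratio of 0.907 it was also, with SRSF7, the lowest of the group at 1 Gy. HNRNPA1, a general splicing repressor, had 541, 426, 436 and 504 CPM. Near-identical copies of HNRNPA1 exist in the genome, so its counts are uncertain. The pseudogene HNRNPA1P48 was counted separately at 11.7 to 13.4 CPM.

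HNRNPM, a regulator of splicing in epithelial to mesenchymal transition, had 486, 355, 292 and 562 CPM. It was among the lower genes at both low doses, with ratios of 0.732 and 0.602. At 1 Gy its ratio of 1.16 (1.15 to 1.17) was the highest of the group, above those of 96% of all genes. HNRNPL, which binds CA repeats, had 133, 90.4, 78.5 and 135 CPM. Its relative HNRNPLL had 26.2, 23.1, 21.8 and 29 CPM. HNRNPM and HNRNPF had the lowest ratios of 100 mGy to 10 mGy, at 0.822 and 0.819, and both were past 1.2-fold there. Only these 2 of 34 were lower and HNRNPH1 alone was higher in that comparison, where 12.7% of all genes were lower and 1.35% higher. Without low-UMI barcodes HNRNPH1 had 219 CPM at 10 mGy and 259.9 CPM at 100 mGy, which is within 1.2-fold.

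The remaining hnRNP genes covered a range between these. HNRNPC, which binds uridine tracts, had 533, 445, 488 and 564 CPM and was within 1.2-fold throughout. HNRNPK, which binds C-rich stretches, had 583, 443, 416 and 617 CPM. HNRNPD, known for its part in the decay of AU-rich mRNA, had 726, 505, 529 and 695 CPM, while its relative HNRNPDL had 526, 449, 441 and 491 CPM and was within 1.2-fold in every library. HNRNPR had 509, 327, 347 and 468 CPM and HNRNPA0 122, 84.8, 80 and 126 CPM. HNRNPK, HNRNPD, HNRNPR and HNRNPA0 were past 1.2-fold in both low-dose libraries and within it at 1 Gy.

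**Figure D2:**
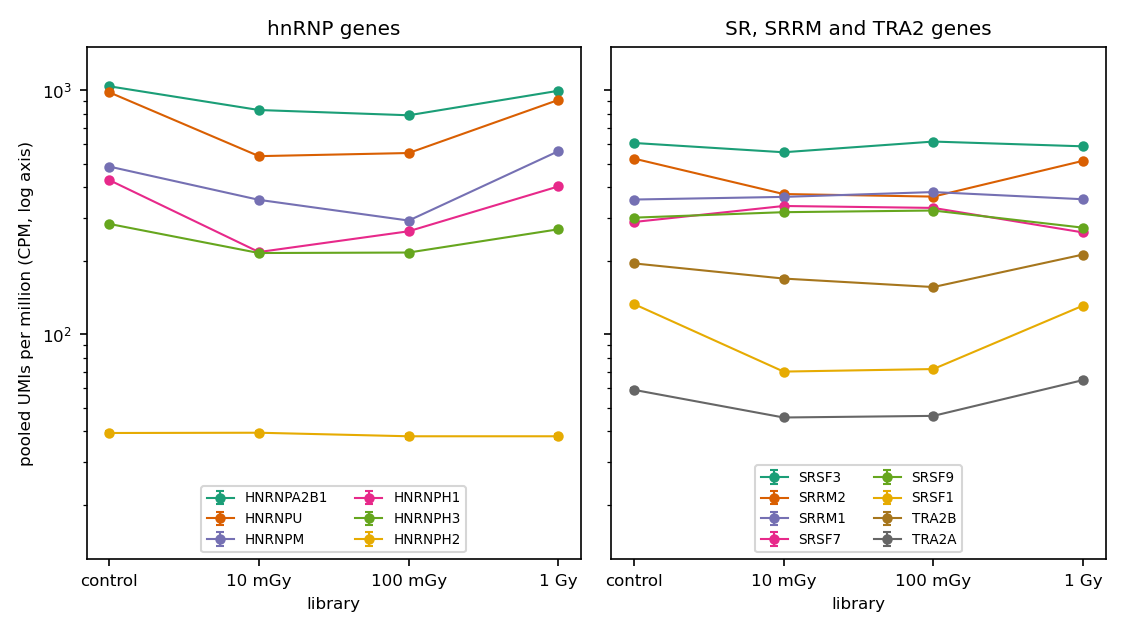
Pooled CPM (vertical axis, log scale) in the 4 libraries (horizontal axis) for 6 hnRNP genes and 8 SR, SRRM and TRA2 genes. Bars, mostly smaller than the points, are exact 95% intervals of counting error, and lines only join the libraries. HNRNPH1, HNRNPU, SRSF1 and SRRM2 dip at both low doses, while SRSF7, SRSF9 and SRRM1 do not.

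SRSF1 and SRSF7 stood at opposite ends of the SR family. SRSF1, the founding SR protein, had 133, 70.3, 72 and 131 CPM. Its ratio was 0.53 (0.52 to 0.54) at 10 mGy, 0.542 (0.532 to 0.553) at 100 mGy and 0.984 (0.968 to 1) at 1 Gy. Both low-dose libraries were thus low by a like amount, and the 1 Gy library was at the control level within counting error. The ratio of SRSF1 at 100 mGy was the lowest of the group. SRSF7, which also serves mRNA export, had 288, 335, 329 and 261 CPM. Its ratios of 1.16 (1.15 to 1.17) and 1.14 (1.13 to 1.16) were the highest of the group at 10 mGy and 100 mGy, though still under 1.2-fold. At 1 Gy the ratio of 0.907 was among the lowest.

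SRSF9, the SR protein closest in kind to SRSF1, went with SRSF7 and not with SRSF1. It had 300.1, 316, 321 and 273 CPM, with ratios of 1.05, 1.07 and 0.91. SRSF2, a nuclear SR protein, had 349, 368, 341 and 329 CPM, and its ratio of 1.06 at 10 mGy was the second highest of the group. SRSF3, the SR gene of highest mean CPM, had 607, 556, 615 and 588 CPM, and SRSF5 had 174, 166, 181 and 168 CPM. These 5 genes, SRSF2, SRSF3, SRSF5, SRSF7 and SRSF9, were within 1.2-fold of the control in all 3 irradiated libraries. SRSF4 had 239, 180.3, 176 and 249.9 CPM and SRSF6 116, 82.9, 80.5 and 125 CPM, both past 1.2-fold at the low doses. SRSF10, a repressor when dephosphorylated, had 210, 170, 179 and 208 CPM, and SRSF11 had 219, 183, 175 and 225 CPM.

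The promoters of SRSF1, SRSF9 and SRSF7 are shown because they lay at both ends of the SR family at the low doses. Each window runs 300 bases, 250 before and 50 after a RefSeq start on GRCh38.p14, at chr17:58007197-58007496, chr12:120469699-120469998 and chr2:38751445-38751744, all on the minus strand and written 5′ to 3′ of the gene. Capitals mark matches, on either strand, to the letters GGGCGG, which SP1 and related factors bind, and to CGGAAG, the core that ETS factors bind. CCAAT was also searched on both strands and has no match in these 3 windows.
SRSF1: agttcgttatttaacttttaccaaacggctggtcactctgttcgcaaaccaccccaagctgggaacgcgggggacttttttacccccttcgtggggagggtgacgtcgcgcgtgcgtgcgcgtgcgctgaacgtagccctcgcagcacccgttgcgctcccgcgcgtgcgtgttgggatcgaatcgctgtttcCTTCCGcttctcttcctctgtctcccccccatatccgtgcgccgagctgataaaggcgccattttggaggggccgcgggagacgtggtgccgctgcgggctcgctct
SRSF9: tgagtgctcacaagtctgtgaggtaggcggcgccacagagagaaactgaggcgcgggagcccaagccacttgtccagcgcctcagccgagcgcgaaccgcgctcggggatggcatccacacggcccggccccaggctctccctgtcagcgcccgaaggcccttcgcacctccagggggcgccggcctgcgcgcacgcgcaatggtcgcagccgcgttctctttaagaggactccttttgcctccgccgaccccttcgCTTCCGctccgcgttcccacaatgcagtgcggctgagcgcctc
SRSF7: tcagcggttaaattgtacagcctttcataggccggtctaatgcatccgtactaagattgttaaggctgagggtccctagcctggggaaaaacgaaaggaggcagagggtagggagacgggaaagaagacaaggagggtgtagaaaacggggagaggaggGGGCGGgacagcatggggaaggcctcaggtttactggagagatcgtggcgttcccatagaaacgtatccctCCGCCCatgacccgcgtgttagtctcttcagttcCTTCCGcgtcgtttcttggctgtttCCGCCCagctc
Each of the 3 windows held 1 match to CGGAAG, and SRSF7 also held 3 to GGGCGG. A promoter was found by symbol for 31 of the 34 genes, and where RefSeq lists several starts the first listed was used. CGGAAG was present in 41.9% of these 31, 37.1% of the 6923 compared genes with a promoter and 19.9% of all 27305 promoters. GGGCGG was present in 67.7%, 73.5% and 44.6%, and CCAAT in 48.4%, 37.4% and 35.7%. The matches describe these letters only, and no binding was measured.

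SRRM2 and SRRM1, both large speckle proteins, differed from each other at the low doses. SRRM2 is named in the study and is a scaffold of nuclear speckles. It had 524, 375, 366 and 513 CPM, with ratios of 0.715 (0.709 to 0.721), 0.699 (0.693 to 0.705) and 0.979 (0.97 to 0.987). SRRM1, a coactivator that bridges SR proteins and the core machinery, had 356, 365, 382 and 357 CPM. Its ratio of 1.07 (1.06 to 1.08) at 100 mGy was the second highest of the group, and at 1 Gy it was at the control level. TRA2A had 59.2, 45.6, 46.3 and 64.9 CPM and TRA2B 195, 169, 156 and 212 CPM. Both TRA2 genes were below the control at the low doses and above it at 1 Gy, with ratios of 1.1 and 1.09 there.

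At 1 Gy the group lay close to the control. Its ratios ran from 0.907 for HNRNPA3 and SRSF7 to 1.16 for HNRNPM, with HNRNPLL at 1.11 and TRA2A at 1.1. Of the 34 genes 20 were below the control, where 43.8% of all genes were, and the interval left out 1 for 30, where it did for 70.3% of all genes. For 30 genes the log2 ratio was nearer to 0 at 1 Gy than at either low dose, and the exceptions were SRSF2, SRSF3, SRSF9 and HNRNPH2, where this held for 84.8% of all genes. At 10 mGy and 100 mGy 29 genes were below the control at each dose, where 71.9% and 74.7% of all genes were.

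Ratios between 2 genes of a library do not depend on how the libraries are scaled to each other. Where the genes differ in exonic length, the ratios still carry the trend with length given below. SRSF1 UMIs per SRSF9 UMI were 0.442 (0.436 to 0.448) without irradiation, 0.222 (0.219 to 0.226) and 0.224 (0.221 to 0.228) in the low-dose libraries, and 0.478 (0.471 to 0.485) at 1 Gy. The control and 1 Gy values thus lay far above both low-dose values. SRRM1 per SRRM2 went the other way, with 0.679, 0.974, 1.04 and 0.696. SRSF5 per SRSF6 was 1.5, 2, 2.24 and 1.34. HNRNPH1 per HNRNPF was 2.43, 1.37, 2.02 and 2.43, a drop centred on the 10 mGy library, and HNRNPH1 per HNRNPH3 was 1.51, 1.01, 1.22 and 1.5. HNRNPH1 has 9480 exonic bases and HNRNPF 3253. Relative to the median log2 ratio of genes of like length, HNRNPH1 was at -0.44 and HNRNPF at -0.05 at 10 mGy. At 100 mGy their order was reversed, at -0.04 and -0.28.

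Other pairs differed less from the control when each is taken at the dose where it differed most. All 15 pairs are in the plot of ratios between family members. HNRNPL per HNRNPLL was 5.07, 3.92, 3.61 and 4.66, HNRNPD per HNRNPDL 1.38, 1.12, 1.2 and 1.41, and SRSF3 per SRSF7 2.11, 1.66, 1.87 and 2.25. HNRNPK per HNRNPM was 1.2, 1.25, 1.42 and 1.1, and HNRNPU per HNRNPUL1 3.66, 3.21, 3.23 and 3.18, with all 3 irradiated libraries below the control by a like amount. Relative to their size, the ranges were narrowest for HNRNPA1 per HNRNPA2B1 at 0.508 to 0.553 and SRSF4 per SRSF6 at 1.99 to 2.18. TRA2A per TRA2B followed at 0.269 to 0.306. Relative to the median log2 ratio of genes of like length, however, TRA2A was at -0.28 and TRA2B at 0.48 at 10 mGy. HNRNPA0 per HNRNPA3 was 0.128, 0.128, 0.113 and 0.144, and SRSF2 per SRSF8 was 35.3, 41.6, 43.4 and 32.5.

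**Figure D3:**
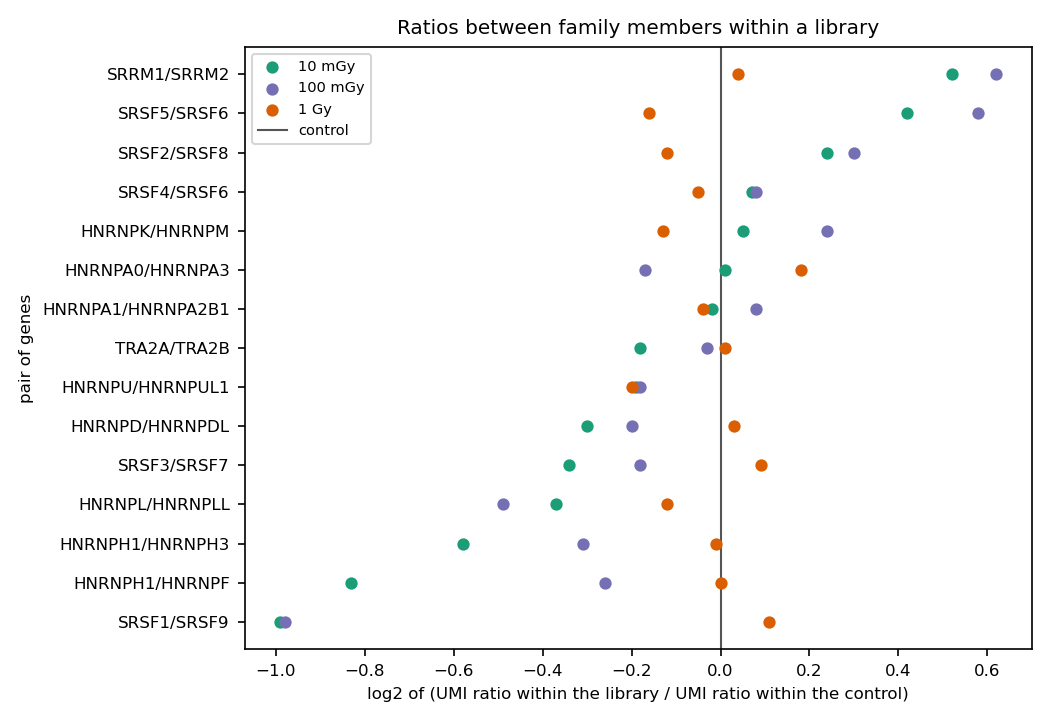
Log2 of the UMI ratio of 2 genes in an irradiated library over the same ratio in the control library (horizontal axis) for 15 pairs (vertical axis), with 1 point per dose. The line at 0 is the control. SRSF1/SRSF9 and HNRNPH1/HNRNPF lie far to the left at 10 mGy, SRRM1/SRRM2 far to the right, and most pairs are nearer to the line at 1 Gy than at the low doses.

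The make-up of the SR family's UMIs differed in the same way. SRSF1 gave 5.01% of all SRSF UMIs in the control and 5.08% at 1 Gy, but 2.88% at 10 mGy and 2.9% at 100 mGy. SRSF7 gave 10.9%, 13.7%, 13.3% and 10.2%, and SRSF3 23%, 22.8%, 24.8% and 22.9%. Among HNRNP UMIs, HNRNPU gave 10.3%, 7.75%, 7.97% and 9.87%, and HNRNPAB 10.4%, 12.3%, 12.3% and 10.2%. SRSF1 and HNRNPU thus took smaller shares, and SRSF7 and HNRNPAB larger shares, in both low-dose libraries than in the other 2.

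Over all genes, ratios at the low doses fell off with the exonic length of the gene, the bases of its joined exons in GENCODE 29. Spearman's rho with log2 ratio across 8500 genes was -0.555, -0.567 and 0.0309 in order of dose. Across the 34 members it was -0.364, -0.275 and 0.117. The genes share libraries and are not independent, so these values are descriptions. Exonic lengths of the members ran from 2144 bases for HNRNPAB to 22512 for HNRNPU with a median of 5978, against 5324 over all genes, and 23 of 34 were above that. Set against genes of like length, in 10 classes of equal size, the median log2 ratio of the members was -0.04, 0.05 and -0.05.

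The order of the members changed on that scale. SRSF1, with 3340 exonic bases, was at -0.82 from the median log2 ratio of its length class at 10 mGy and at -0.73 at 100 mGy, the farthest of the group at both doses. HNRNPAB, which was near the control in CPM, was at -0.57 and -0.56, since the shortest genes were mostly higher. HNRNPH1 was at -0.44 and -0.04, and HNRNPU, the longest, at -0.19 and -0.02, so both lay close to genes of like joined exonic length at 100 mGy. Joined exons take in every annotated transcript and can exceed the length of an mRNA. For HNRNPU they were 22512 of the 23923 bases of the gene, which limits its comparison by length. SRRM2 at 0.20 and 0.29 and SRRM1 at 0.53 and 0.69 were both above genes of their length. By 1.2-fold on this scale 5 were lower and 5 higher at 10 mGy, where 22.0% and 24.6% of all genes were, and 5 were lower and 10 higher at 100 mGy, where 24.3% and 25.4% were.

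**Figure D4:**
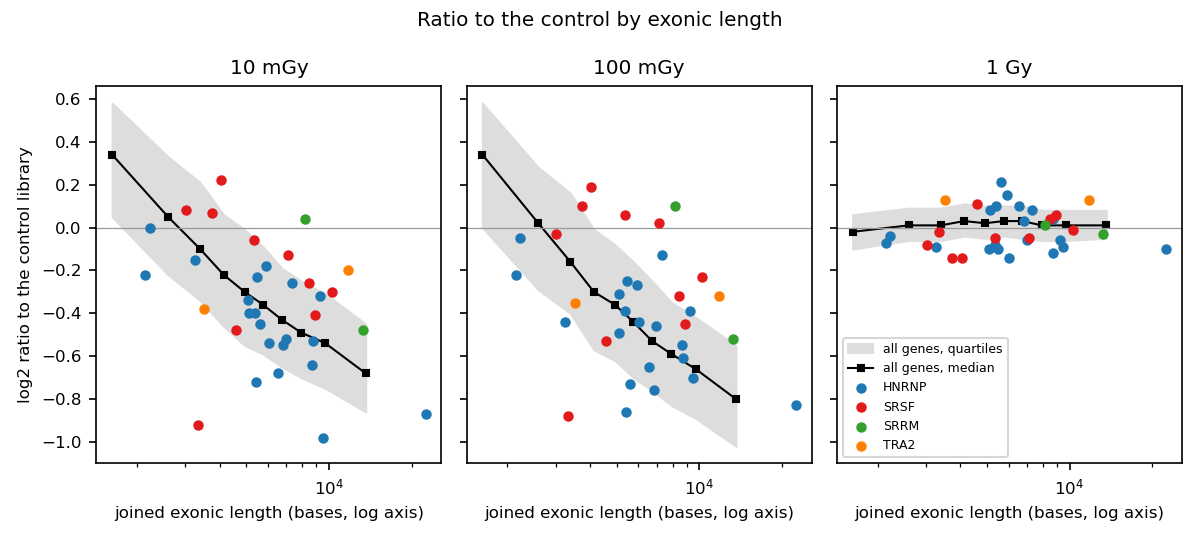
Log2 ratio to the control (vertical axis) against exonic length in bases (horizontal axis, log scale) for the 34 members, coloured by family, at each dose. The black line and grey area are the median and quartiles of all genes in 10 classes of length. At the low doses SRSF1 lies well under the grey area and SRRM1 above it, and at 1 Gy the line is flat.

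The share of barcodes with a UMI of a given member was smaller in each irradiated library than in the control for all 34 genes. The same held for 97.4%, 99.0% and 99.9% of all genes compared in order of dose, but the irradiated libraries were also shallower per barcode. The median share over the members was 88.3%, 71.1%, 77.2% and 80.8%. With every barcode thinned to 5000 UMIs, which left out 2051, 8953, 5679 and 3980 shallower barcodes, it was 76.5%, 71.6%, 72.5% and 75%. SRSF1 was found in 78.9%, 48.3%, 49.3% and 67.6% of barcodes, and in 48.3%, 29.2%, 29.9% and 47.7% after thinning. HNRNPH1 was found in 86.4%, 64.4%, 69.5% and 84.4% after thinning and SRRM2 in 91.6%, 84.1%, 82.1% and 91.1%.

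SRSF7 was found in a smaller share of low-dose than of control barcodes before thinning, 76.6% and 79% against 88.4%, and in a larger share after it, 81.1% and 79.6% against 75.5%. After thinning, 30 genes had a smaller share than in the control at 10 mGy and the other 4, SRRM1, SRSF2, SRSF7 and SRSF9, a larger one, and at 100 mGy the 4 were SRRM1, SRSF5, SRSF7 and SRSF9. At 1 Gy 18 were smaller and 16 larger. Of all genes 71.5%, 74.5% and 42.4% had a smaller share at these doses. No cell type that lacks these genes is present in a cell line, so the share that free RNA would give was not measured.

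**Figure D5:**
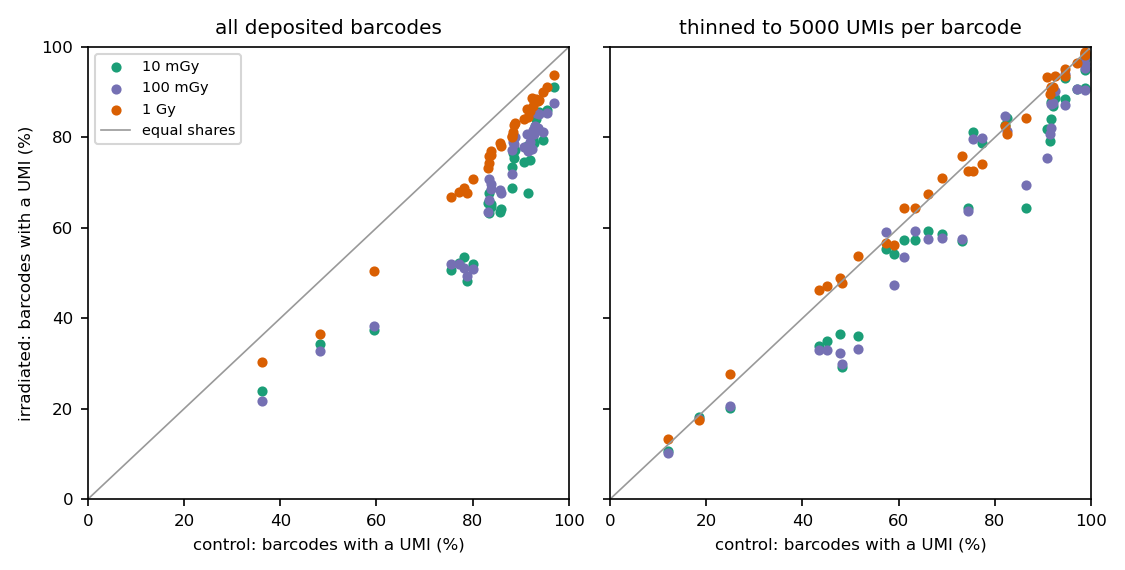
Share of barcodes with a UMI of each of the 34 members in an irradiated library (vertical axis, %) against the control (horizontal axis, %), for all barcodes and with each barcode thinned to 5000 UMIs. Without thinning all points lie under the line of equal shares, and after it the 1 Gy points lie along the line while most low-dose points stay under it.

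The study screened genes by dispersion, the standard deviation over the mean of a gene across barcodes. With UMIs scaled to 10000 per barcode, its median over the members was 79.3%, 108%, 121% and 96.4%. The 100 mGy value was the lower of both low doses for 0 of the 34, where it was for 1.41% of all genes. After thinning to 5000 UMIs the medians were 84.2%, 91.2%, 91.5% and 85.5%. Of the 34, 12 were lower at 100 mGy, where 31.1% of all genes were, and SRSF1, HNRNPH1 and SRRM1 were among the 12. The dispersion that counting alone would give also fell for SRSF1 (169% to 166%), HNRNPH1 (95.1% to 86.7%) and SRRM1 (73.8% to 71.9%). Their lower dispersion at 100 mGy thus does not show a smaller spread between barcodes beyond counting. HNRNPAB had the lowest dispersion of the members in every library, 49.1% to 54.5% after thinning, and HNRNPLL the highest, 264% to 307%. HNRNPLL had the lowest mean CPM of the members compared, and counting alone would give it 263% to 308%. HNRNPA2B1 was the farthest from the dispersion that counting alone would give, at 1.15, 1.19, 1.24 and 1.17 times that value, and SRSF1 was at 1.01 to 1.03 times. This multiple nears 1 for genes of few UMIs, and SRSF1 was far below HNRNPA2B1 in CPM. The multiples thus do not compare the spread of these genes beyond counting.

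Low-UMI barcodes took different shares of the libraries, and some members differed between them and the other barcodes of the same library. HNRNPAB was lower in low-UMI barcodes in all 4 libraries, with ratios of 0.795, 0.759, 0.771 and 0.651. HNRNPA2B1 was above 1 in all 4, at 1.28, 1.23, 1.13 and 1.18, as were HNRNPDL at 1.18 to 1.21 and SRSF5 at 1.15 to 1.32. HNRNPH1 had 558, 192, 405 and 434 CPM in low-UMI barcodes and 425, 219, 259.9 and 402 CPM in the others, so its 10 mGy value was the lowest in both kinds of barcode. Past 1.2-fold, 3, 6, 7 and 4 of the 34 were lower in low-UMI barcodes, where 15.6%, 21.5%, 14.6% and 26.7% of all genes were. Of the members 5, 2, 2 and 1 were higher, where 11.0%, 10.3%, 11.6% and 12.9% were.

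Genes that act with these regulators were read from lists chosen with earlier results of these data known. Of 9 SR protein kinase and phosphatase genes compared, 6 were lower at 10 mGy and 6 at 100 mGy, near the 53.0% and 58.9% of all genes. DYRK1A, a kinase found in speckles, had the lowest ratio at 10 mGy, with 45.4, 23.5, 20.2 and 46.5 CPM, and PPP1CA, a phosphatase subunit, the highest, with 246, 275, 276 and 245 CPM. At 1 Gy they ran from CLK4 at 0.957 to CLK1 at 1.16, and CLK1, a kinase of SR proteins, had 35.7, 19.7, 18 and 41.5 CPM. All 3 import receptors of SR and hnRNP proteins were lower at both low doses, where 50.7% of all genes were, and 1 and 0 of them were lower by 1.2-fold than genes of like exonic length. Their ratios ran from TNPO2 at 0.551 to TNPO3 at 0.708 at 10 mGy, and at 1 Gy they ran from TNPO1 at 1.01 to TNPO2 at 1.15.

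Of 24 other genes of RS-domain and speckle proteins compared, 17 were lower at 10 mGy and 17 at 100 mGy, against 53.0% and 58.9% of all genes. Set against genes of like exonic length, 4 and 3 were lower and 7 and 8 higher, where 22.0% and 24.3% of all genes were lower and 24.6% and 25.4% higher. Ratios of CPM ran from CCNL2, a cyclin of speckles, at 0.353 to RSRC1 at 1.07 at 10 mGy, and from LUC7L2 at 0.89 to SUGP2 at 1.11 at 1 Gy. CCNL2 had 101, 35.5, 33.4 and 99.8 CPM. Of 33 other RNA-binding regulators compared, 27 were lower at 10 mGy and 28 at 100 mGy, with median log2 ratios of -0.55 and -0.59, where those of all genes were -0.30 and -0.38. Set against genes of like length, 8 and 11 of the 33 were lower and 3 and 2 higher, beside those same shares of all genes. Their ratios of CPM ran from MATR3, a nuclear matrix protein, at 0.413 to PCBP1, a binder of C-rich RNA, at 1.08 at 10 mGy. At 1 Gy they ran from QKI at 0.921 to MATR3 at 1.12. MATR3 has 2 identifiers in the deposited gene list, so its counts are uncertain. The one of higher CPM was used, at 18, 7.45, 6.77 and 20.2 CPM. The nuclear retained RNAs MALAT1, with 12576, 7801, 7401 and 11949 CPM, and NEAT1, with 3866, 2958, 2163 and 4483 CPM, were lower at both low doses, where 50.7% of all genes were. Against genes of like length, 0 of these RNAs were lower at either low dose, with median log2 ratios of 0.07 and -0.07. No gene compared from these lists was higher by 1.2-fold at a low dose or past 1.2-fold at 1 Gy, where 15.4% and 14.0% of all genes were higher at the low doses and 0.846% lower and 1.28% higher at 1 Gy.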

How the data were processed

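Raw counts of UMIs by gene and barcode were deposited by the authors, made with Cell Ranger 7.0.1 (file header), and were used without further filtering. The submitters' processing notes name Cell Ranger, STAR and GRCh37, while the annotation and the handling of introns were not given in the sources used here. Groups came from the sample labels, 1 library per dose. All deposited barcodes were used, and doublets were kept. UMIs of a gene were summed over the barcodes of a library and divided by its total, per 1000000 (CPM), and ratios to the control were taken for genes with a mean of at least 10 CPM. Intervals are exact conditional binomial or Clopper-Pearson 95% intervals. Library totals of 211752280 to 285806026 UMIs make them narrow, and precision is limited by having 1 library per dose. Exonic length came from GENCODE 29 by gene identifier, for 99.9% of the genes compared, and promoters from RefSeq. The proteins are not shown, since no protein table was used here.

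Members and lists were chosen with earlier results of these data known. Values were given for SRRM2, the 3 genes of highest mean CPM in HNRNP and SRSF, all SRRM and TRA2 genes compared, and the 3 highest and 3 lowest ratios at each dose (2 between the low doses), and for the remaining members to account for them. From each other list the highest and the lowest ratio at 10 mGy and 1 Gy were named. Alternatives were another weighting, 3 other scalings, 3 selections of barcodes, removal of barcodes of more than 2 times the median UMI count, minimums of 1 and 100 CPM and none, a threshold of 1.5-fold, centring by exonic length, and thinning to 5000 UMIs. Ratios and intervals were run on simulated counts that held counting error only. That run checks the computation and does not cover spread between barcodes or between libraries. Versions were matplotlib 3.10.9, pandas 2.3.3, scipy 1.17.1 and numpy 2.4.6 under Python 3.11.15.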

Additional observations from a re-analysis of the deposited data

How the results depend on the processing

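Scaling between libraries decided the counts at the low doses. The median log2 ratio of the members was -0.36 at 10 mGy and -0.39 at 100 mGy when scaled to the library total. It was -0.06 and -0.01 when scaled by the median ratio of genes, -0.27 and -0.27 without ribosomal protein and mitochondrially encoded genes, -0.89 and -1.04 with unscaled UMIs per barcode, -0.39 and -0.42 as a mean over barcodes, -0.40 and -0.44 with a minimum of 100 CPM, and -0.04 and 0.05 when centred on genes of like exonic length. The medians of all genes shifted alike, to -0.22 and -0.27 without ribosomal protein and mitochondrially encoded genes and to -0.83 and -1.03 unscaled. Under both of these scalings the members stayed at -0.06 and -0.01 from them. Without a minimum the median of the members was -0.38 at 10 mGy. At 1 Gy it was -0.04, and -0.07 by the median ratio of genes and -0.53 unscaled. The counts of lower genes, 20 and 23, became 6 and 7 by the median ratio (background 27.3% and 29%), 5 and 5 by exonic length (22.0% and 24.3%) and 6 and 8 at 1.5-fold (background 25.8% and 33.9%), and 34 at each of these doses unscaled (background 84.6% and 90.1%). As a mean over barcodes they were 24 and 23 (background 54.4% and 58.9%). The counts of higher genes, 0 and 0, became 5 and 7 by the median ratio (background 30.6% and 31.8%), 1 and 1 (SRSF7) without ribosomal protein and mitochondrially encoded genes (19.1% and 18.2%) and 5 and 10 by exonic length (24.6% and 25.4%). At 1 Gy 34 were lower unscaled (background 97.2%), 1 (HNRNPA1L2) was lower with a minimum of 1 CPM (1.42%), and 1 was lower and 1 (SRRM5) higher with none (11.5% and 15.7%). With a minimum of 100 CPM the median of all genes was -0.06 and -0.07 at the low doses, so that the members stood farther below genes in general than among the 8507. Without a minimum the median of all genes was -0.40 and -0.50, and the members, at -0.38 and -0.39, stood above it. The position of the members relative to all genes thus depended on the minimum. The count of members of lower dispersion at 100 mGy than at 10 mGy went from 0 to 12 after thinning, and the median share of barcodes with a UMI went to 76.5% in the control, 72.5% at 100 mGy and 75% at 1 Gy. Of single-gene values relative to the median of all genes, 794 moved by less than counting error, and 124 by more. The 794 include values scaled by the median ratio of genes, without ribosomal protein and mitochondrially encoded genes, and unscaled. Each of these scalings shifts all genes alike, so no value relative to that median could move under it. For those scalings the count thus says nothing about stability. Among the single-gene values of all settings, 8 of 4 genes (SRSF10, HNRNPA2B1, HNRNPC and SRRM1) changed sign. All 8 were within 0.05 of 0 before and after, and 0 were past 1.2-fold before. Of the pair ratios without low-UMI barcodes 52 moved by less and 8 by more. The cause was not tested. No paired analysis was possible because each dose has 1 library. Depth limits the genes under 10 CPM and the shares of barcodes.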
